A study of Mus musculus with 11 samples.

Results

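AP-1 is a family of dimeric transcription factors built from Fos and Jun proteins and a few partners. Its 9 genes examined here were Fos, Fosb, Fosl1, Fosl2, Jun, Junb, Jund, Batf and Atf3. They were taken from a list by name and found among the 54418 genes of the count table through the GENCODE mouse gene names, and all 9 were present. The list was drawn up with the differences between the knockout and wt mice in view, so those differences are given as a description. Where members past a threshold are counted in them, the count stands beside the share of all genes, and it is no independent test of AP-1. Differences between the 2 knockout genotypes had not served to choose the genes and were tested. RNA sequencing had been performed on thymocytes, as single-cell suspensions of the thymus, from 11 mice of 8 to 12 weeks of age on a C57BL/6-WEHI background. There were 4 wt mice, 4 Zmat3-/- mice and 3 Puma-/-p21-/-Zmat3-/- mice (TKO). The deleted genes encode ZMAT3 (an RNA-binding zinc finger protein), PUMA (a pro-apoptotic BH3-only protein, gene Bbc3) and p21 (a cell cycle inhibitor, gene Cdkn1a), which are all induced by TRP53. All deletions were constitutive, so every cell of the thymus and of the mouse carried them. The wt mice served as controls for both knockout genotypes, so the comparisons of each with wt shared the same control mice.

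AP-1 proteins share a basic leucine zipper, through which a Fos protein must pair with a Jun protein, while Jun proteins can also pair with each other. The dimers bind short palindromic DNA elements, and several of the genes, Fos and Jun among them, are classical immediate early genes that are transcribed within minutes of a stimulus into short-lived mRNAs. In developing T cells AP-1 acts downstream of T cell receptor and MAP kinase signalling. JUNB and JUND often counteract the growth-promoting activity of JUN, BATF lacks a transactivation domain and pairs with Jun proteins in lymphocytes, and ATF3 is a stress-induced partner.

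The proximal promoters of Fos, Fosb, Junb and Jun are shown because these 4 members differed most between knockout and wt mice. They are the 250 bases before the RefSeq transcription start in build GRCm38.p6, 5′ to 3′ on the gene's strand. Capitals mark TGACG, the half-site of the cyclic AMP response element, and the word TATAAA, to which the basal transcription machinery binds. The window of Jun held neither.
Fos (chr12:85473640-85473889, plus strand): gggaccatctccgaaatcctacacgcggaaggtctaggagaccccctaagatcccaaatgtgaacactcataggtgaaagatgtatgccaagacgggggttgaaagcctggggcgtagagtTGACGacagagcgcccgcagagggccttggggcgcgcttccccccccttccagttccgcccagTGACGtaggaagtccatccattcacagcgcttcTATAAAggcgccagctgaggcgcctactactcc
Fosb (chr7:19310046-19310295, minus strand): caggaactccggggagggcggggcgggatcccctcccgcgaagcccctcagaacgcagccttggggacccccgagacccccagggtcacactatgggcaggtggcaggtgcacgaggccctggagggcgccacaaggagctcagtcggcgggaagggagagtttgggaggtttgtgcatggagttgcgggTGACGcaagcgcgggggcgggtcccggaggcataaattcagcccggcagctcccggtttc
Junb (chr8:84978749-84978998, minus strand): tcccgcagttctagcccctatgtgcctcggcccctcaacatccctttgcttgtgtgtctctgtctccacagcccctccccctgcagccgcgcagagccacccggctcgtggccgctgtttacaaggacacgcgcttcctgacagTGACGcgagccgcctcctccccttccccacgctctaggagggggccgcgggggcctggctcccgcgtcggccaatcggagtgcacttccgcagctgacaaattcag
Jun (chr4:95052223-95052472, minus strand): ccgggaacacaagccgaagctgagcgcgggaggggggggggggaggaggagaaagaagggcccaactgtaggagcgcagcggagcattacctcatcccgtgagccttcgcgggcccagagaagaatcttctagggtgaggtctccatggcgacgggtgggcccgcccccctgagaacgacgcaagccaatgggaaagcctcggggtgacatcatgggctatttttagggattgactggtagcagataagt
Among the 8 members with a sequence in the promoter set used (all but Fosl1), 5 had TGACG or its reverse complement in this window, against 17.8% of 32851 promoters of the same length. In Fos it began 129 and 66 bases before the start, in Fosb 60, in Junb 106, in Batf 98 and in Atf3 7. The only TATAAA was that of Fos, 33 bases before the start, against 12.4% of all promoters. None of the 8 windows held the AP-1 element TGACTCA (4.46% of all promoters), the full element TGACGTCA (1.55%) or a CArG box, the binding element of SRF (1.47%). TGACG is contained in TGACGTCA, and both strands were searched for each word. Sequence outside these 250 bases was not searched, so an element farther upstream would be missed.

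The mature mRNAs shared another feature that the choice of genes did not use. TATTTAT, the core of an AU-rich element, which marks many unstable mRNAs, occurred in the 3′ UTR of 7 of the 9 members, against 27.5% of 11404 protein-coding genes with a 3′ UTR. The shorter word ATTTA occurred in 8 of 9, against 66.1%, and Batf had neither. The counts were 2 TATTTAT in Fos, 3 in Fosl2 and 1 each in Fosb, Fosl1, Jun, Jund and Atf3, while Junb had only 2 ATTTA. Windows of 30 bases in which ATTTA (capitals) occurs more than once are shown for Fos, Fosl2 and Jun, in GRCm38 transcript sequence.
Fos: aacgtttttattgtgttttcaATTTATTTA
Fosl2: agaagaaattgacATTTAttttattATTTA
Jun: gtgatcATTTAtaatcataggaaagATTTA
Jun, Junb and Jund each consist of a single exon, as do 2.10% of the tested coding genes. Longer UTRs hold more such words by chance, and UTR length was not adjusted for.

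Total counts per mouse ranged from 17669715 to 80207003. Normalised read counts are given as CPM, that is counts scaled to a common library size, with TMM scaling over all 11 mice. The thymocyte identity was checked first: all 11 thymocyte markers (Cd3e, Cd4, Cd8a, Rag1, Ptcra and others) were detected, summing to between 12100 and 16912 CPM. Zmat3 itself was 9.88, 12.2, 26.8 and 26.8 CPM in wt mice 1 to 4, 5.67, 5.34, 6.42 and 6.85 in Zmat3-/- mice and 8.05, 7.78 and 8.25 in TKO mice, so every knockout mouse was below every wt mouse. Bbc3 was 12.9 to 15.2 CPM in TKO and 16.8 to 20.1 in wt, and Cdkn1a was 2.49 to 3.52 in TKO and 3.53 to 10.4 in wt. One feature of the wt group touches every comparison of AP-1 with wt. Wt mice 3 and 4 stood apart from wt mice 1 and 2: across 12957 genes, 22.6% differed more than 2-fold between the means of these pairs, against 0.756% between Zmat3-/- mice 1 and 2 and Zmat3-/- mice 3 and 4. Xist was 505 and 620 CPM in wt mice 1 and 2 and 1.70 and 2.54 in wt mice 3 and 4. Wt mice 3 and 4 also had lower summed CPM of heat shock genes (8 of 8 detected, 1527 and 1594 against 2681 and 2797), of thymic stroma markers (10 of 10 detected, 34.3 and 57.8 against 132 and 127) and of macrophage and monocyte markers (9 of 9 detected, 227 and 206 against 390 and 407), whereas their erythroid markers were higher (6 of 6 detected, 8558 and 2172 against 1079 and 880). In the Zmat3-/- mice the sums spanned 2372 to 3293 (heat shock), 91.3 to 117 (stroma) and 296 to 409 (macrophages), and in the TKO mice 2613 to 3513, 50.3 to 118 and 183 to 447. The share of counts on mitochondrial genes was 5.38%, 6.31%, 4.45% and 4.25% in wt mice 1 to 4, 10.4%, 6.54%, 14.6% and 12.0% in the Zmat3-/- mice and 8.44%, 9.29% and 3.86% in the TKO mice. It was thus higher in every Zmat3-/- mouse and in TKO mice 1 and 2 than in any wt mouse, as were Fos, Fosb, Jun and Junb, and it was lowest in TKO mouse 3, in which these genes were also above wt. The part of these sums and shares in the AP-1 levels was not tested. In RNA from whole suspensions, fewer cells of a type and less RNA per cell cannot be told apart.

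Transcripts of Fos, Fosb, Jun and Junb were more abundant in every knockout mouse of both genotypes than in any wt mouse, while Jund and Batf lay between the low and the high wt mice. Fos, on chr12:85473890-85477273, encodes the prototype partner of JUN. Its level was 33.3 and 40.2 CPM in wt mice 1 and 2, 2.78 and 3.00 in wt mice 3 and 4, 184, 190, 141 and 219 in the 4 Zmat3-/- mice and 210, 124 and 219 in the 3 TKO mice. The knockout mice thus did not overlap with the wt mice, although the wt mice themselves fell into a higher and a much lower pair. The mean was 19.8 ± 19.8 CPM in wt (SD, n = 4), 184 ± 32.1 in Zmat3-/- (SD, n = 4) and 185 ± 52.3 in TKO (SD, n = 3). The fitted log2 fold change (log2FC) was 3.23 (SE 0.846) for Zmat3-/- against wt and 3.17 (SE 0.926) for TKO against wt.

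Fosb, on chr7:19302696-19310051, encodes a close relative of FOS with the same immediate early behaviour. It was 3.25, 4.42, 2.07 and 1.96 CPM in wt, 43.4, 42.3, 23.2 and 46.5 in Zmat3-/- and 52.4, 18.9 and 61.3 in TKO mice. Here the wt mice were all low, and the lowest knockout mouse, TKO mouse 2, was still well above the highest wt mouse. Its log2FC was 3.73 (SE 0.326) for Zmat3-/- and 3.84 (SE 0.433) for TKO. These were above the values of Fos, but the order turned in some fits: with the replicate block the log2FC in Zmat3-/- was 4.03 for Fos and 3.75 for Fosb, with 1 surrogate variable 4.29 and 3.82, with the Xist level as a covariate 3.85 and 3.77, and without wt mice 1 and 2 5.96 and 4.25. In TKO it turned with the Xist level (4.44 for Fos and 3.99 for Fosb) and without wt mice 1 and 2 (5.92 and 4.38). Fosb was the 1 member that passed an adjusted p of 0.05 and an absolute log2FC of 1.5 in edgeR's quasi-likelihood test, in both comparisons. Over all genes 0.319% were called in Zmat3-/- against wt and 0.241% in TKO against wt by the same rule, and since these contrasts had served to choose the genes nothing is read from this count. In TKO against wt, Fosb was no longer called when either TKO mouse 1 or TKO mouse 3 was left out, which leaves 2 TKO mice, with 0 members called then, and 0 members were called with the replicate block. Its log2FC was 3.69 without TKO mouse 1, 3.63 without TKO mouse 3 and 3.62 with the block. The adjusted p from edgeR's test was 0.084, 0.097 and 0.156. DESeq2 called 3 members in TKO (Fosb, Jun and Junb) and 4 in Zmat3-/- mice (these and Fos), and edgeR with 1 surrogate variable called 1 in TKO (Fosb) and 5 in Zmat3-/- mice (Fosb, Fos, Atf3, Jun and Junb). Over all genes DESeq2 called 103 of 13260 in TKO and 123 of 13494 in Zmat3-/- mice, edgeR with 1 surrogate variable called 19 and 160, and the replicate block in TKO called 16.

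**Figure D1:**
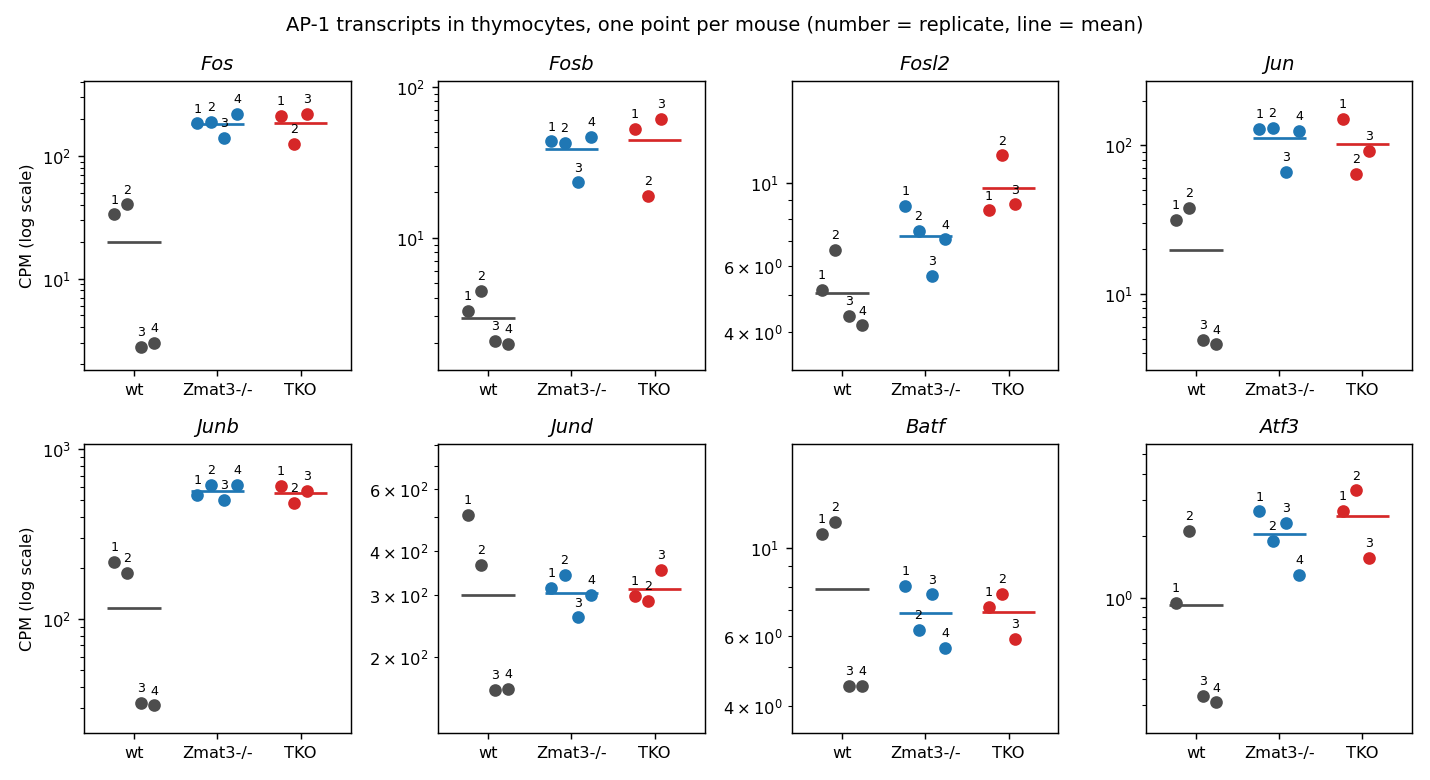
CPM of each AP-1 gene that passed the filter on low counts, on logarithmic axes with a separate range per gene, for 4 wt, 4 Zmat3-/- and 3 TKO mice; each point is a mouse with its replicate number and each line a group mean. Fos, Jun and Junb show wt mice 3 and 4 far below wt mice 1 and 2, and all knockout mice above both, whereas for Jund and Batf the knockout mice lie between the wt pairs.

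Fosl2 (FRA2) and Fosl1 (FRA1) are the Fos relatives without the strong transactivation domain of FOS. Fosl2, on chr5:32135801-32157842, was 5.17, 6.61, 4.40 and 4.15 CPM in wt, 8.65, 7.42, 5.63 and 7.06 in Zmat3-/- and 8.43, 11.8 and 8.75 in TKO mice. All TKO mice and 3 of the 4 Zmat3-/- mice were above the highest wt mouse, by a margin much smaller than for Fos or Fosb. Its log2FC was 0.51 (SE 0.197) for Zmat3-/- and 0.90 (SE 0.246) for TKO. Fosl1, on chr19:5447547-5455946, was at 0 to 1 counts in each wt mouse, at most 2 counts in a Zmat3-/- mouse and at most 3 counts in a TKO mouse, did not pass the filter on low counts, and gives no fold change because every mouse was at or under a floor of 3 counts. A floor of 3 counts corresponds to between 0.0374 and 0.170 CPM, depending on the mouse, and covers counting error only.

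The Jun family differed within itself. Jun, on chr4:95049034-95052222, encodes the founding AP-1 activator and was 31.3, 37.8, 4.94 and 4.58 CPM in wt, 129, 131, 66.2 and 124 in Zmat3-/- and 151, 64.3 and 92.0 in TKO mice. As for Fos, the groups did not overlap and wt mice 3 and 4 were lowest. The log2FC was 2.53 (SE 0.692) for Zmat3-/- and 2.36 (SE 0.770) for TKO.

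Junb, on chr8:84974484-84978718, encodes a Jun protein with weaker transactivation than JUN. It was 217, 186, 32.3 and 31.1 CPM in wt, 540, 619, 505 and 614 in Zmat3-/- and 609, 482 and 572 in TKO mice. The knockout mice were grouped above all wt mice. The mean was 570 ± 56.2 CPM in Zmat3-/- (SD, n = 4), 554 ± 65.2 in TKO (SD, n = 3) and 117 ± 98.8 in wt (SD, n = 4). The log2FC was 2.31 (SE 0.636) for Zmat3-/- and 2.22 (SE 0.699) for TKO. At its 3′ end 173 exonic bases of Junb overlap Prdx2 on the opposite strand. Because the library kit does not mark strand, reads from the overlap cannot be told apart, and Prdx2 was lower in the knockout mice (127 to 146 CPM) than in wt mice 1 and 2 (261 and 206) and higher than in wt mice 3 and 4 (104 and 106).

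Jund, on chr8:70698949-70700616, encodes the Jun protein that most resting cells contain. It was 508, 367, 162 and 163 CPM in wt, 315, 342, 260 and 300 in Zmat3-/- and 298, 289 and 354 in TKO mice. All 7 knockout mice lay between the low and the high wt pair. The log2FC was 0.035 (SE 0.356) for Zmat3-/- and 0.025 (SE 0.405) for TKO, with 95% intervals from -0.78 to 0.85 and from -0.91 to 0.96. A difference of any size within these bounds is not excluded. An antisense gene, Gm11175, covers 877 exonic bases of Jund and was at most 0.372 CPM. Likewise Junos, antisense to Jun over 232 bases, was at most 0.373 CPM.

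The partners Batf and Atf3 were expressed at low levels. Batf, on chr12:85686669-85709087, was 10.9, 11.7, 4.48 and 4.50 CPM in wt, 8.02, 6.22, 7.65 and 5.60 in Zmat3-/- and 7.10, 7.67 and 5.91 in TKO mice. Like Jund it lay between the wt pairs in all knockout mice, and its log2FC was -0.19 (SE 0.340) for Zmat3-/- and -0.22 (SE 0.400) for TKO. Atf3, on chr1:191170296-191218039, was 0.942, 2.11, 0.332 and 0.308 CPM in wt, 2.64, 1.89, 2.32 and 1.29 in Zmat3-/- and 2.64, 3.33 and 1.56 in TKO mice. Its groups overlapped through wt mouse 2, and the log2FC was 1.13 (SE 0.583) for Zmat3-/- and 1.40 (SE 0.689) for TKO. Fos and Batf are neighbours on chromosome 12, 209396 bp apart with Jdp2, which encodes another AP-1 partner, between them. The log2FC of Jdp2 was 0.24 (SE 0.301) for Zmat3-/- and 0.25 (SE 0.333) for TKO, where that of Fos was 3.23 and 3.17.

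Of the 8 members that passed the filter, 7 had a positive and 1 (Batf) a negative log2FC in each comparison with wt. The median over the 8 was 1.72 for Zmat3-/- and 1.81 for TKO, against -0.026 and -0.037 over all genes tested. In Zmat3-/- mice 4 members (Fos, Fosb, Jun, Junb) and in TKO mice 5 (the same and Fosl2) were above wt in every mouse, against 7.31% and 6.95% of all genes. These counts describe genes that were chosen on the same contrasts.

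**Figure D2:**
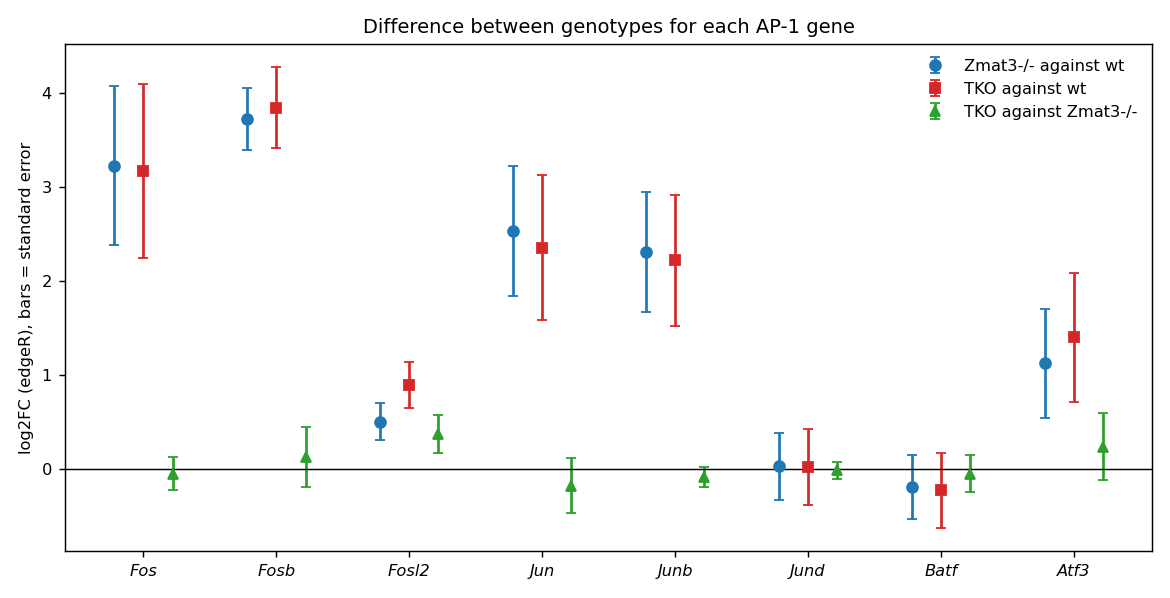
log2FC of the 8 AP-1 genes that passed the filter, from edgeR, with standard errors as bars, for Zmat3-/- against wt (circles), TKO against wt (squares) and TKO against Zmat3-/- (triangles). Fosb is highest against wt at 3.73 and 3.84 with short bars, Fos, Jun and Junb follow with long bars, and all differences between the 2 knockout genotypes lie between -0.17 and 0.37.

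Levels of different members can be compared only per length of exon. On the scale of mean CPM per kb, the order in wt was Jund (180), Junb (64.4), Fos (9.41), Batf (8.25), Jun (6.16), then Fosl2 (0.777), Fosb (0.774) and Atf3 (0.429). In Zmat3-/- mice the order was Junb (315), Jund (182), Fos (87.1), Jun (35.3), Fosb (10.3), Batf (7.20), Fosl2 (1.10) and Atf3 (0.943), and in TKO mice it was the same with 306, 188, 87.5, 32.2, 11.7, 7.22, 1.48 and 1.17. Thus Jund was the most abundant member in each wt mouse and Junb in each knockout mouse. In wt all neighbours in this order overlapped between mice except Jun and Fosl2, since wt mice 3 and 4 were low for most members. In both knockout genotypes only Fosb and Batf, and Fosl2 and Atf3, overlapped among the neighbours of these 8 members.

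The composition of the AP-1 pool could also be read mouse by mouse. Jund made up 65.7%, 59.5%, 78.3% and 78.9% of the summed CPM per kb in wt mice 1 to 4, and between 26.0% and 32.3% in the knockout mice. Junb made up 25.8%, 27.9%, 14.4% and 13.9% in wt and 46.1% to 51.8% in the knockout mice. The 4 Fos family genes made up 3.87%, 5.98%, 2.16% and 2.17% of Fos plus Jun family transcripts in wt mice 1 to 4, whereas the Zmat3-/- mice ranged from 14.0% to 17.3% and the TKO mice from 12.5% to 17.9%. These shares separate knockout from wt mice also for wt mice 1 and 2, which had the higher AP-1 levels. They restate the member levels given above, of genes chosen on the same contrasts, and are no further test.

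**Figure D3:**
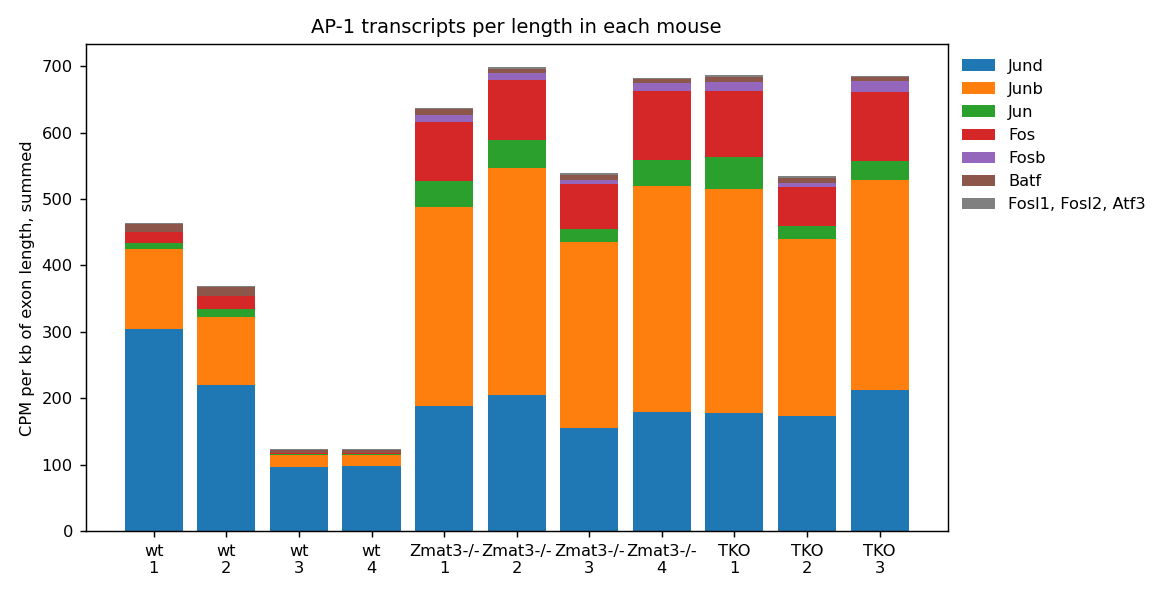
Summed CPM per kb of exon length of the AP-1 genes in each of the 11 mice, stacked by gene. The total was 464, 369, 124 and 124 in wt mice 1 to 4 and 535 to 698 in the 7 knockout mice, where Junb (orange) is the largest layer and Jund (blue) the largest in wt.

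The size of the difference from wt depended on which wt mice were used. Wt mice 1 and 2 exceeded wt mice 3 and 4 by 12.7-fold for Fos, 7.26-fold for Jun, 6.36-fold for Junb, 4.77-fold for Atf3, 2.70-fold for Jund, 2.51-fold for Batf, 1.90-fold for Fosb and 1.38-fold for Fosl2. Among Zmat3-/- mice the same division by number gave 1.04-fold to 1.36-fold. In the wt group the SD of log2 CPM of Fos, Jun, Junb and Atf3 was higher than that of 98.6%, 97.9%, 97.5% and 96.0% of 12957 genes, but that of Fosl2 than only 39.9%. Fos, Jun and Junb were thus among the most variable genes of the wt mice, and Fosb (71.6%) was nearer to the middle.

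Xist was high (505 to 1485 CPM) in 5 mice, namely TKO mouse 1 and mice 1 and 2 of the other genotypes, and low (0.806 to 2.54) in the remaining 6, so each difference was also taken within mice of like Xist level. The labels give no sex, and in wt the Xist level cannot be told apart from the division between wt mice 1 and 2 and wt mice 3 and 4. Fos in Zmat3-/- mice was 5.09 times wt among high-Xist mice and 62.3 times among low-Xist mice, and in TKO mice 5.72 and 59.4 times. For Jun the values were 3.76 and 20.03 in Zmat3-/- and 4.38 and 16.4 in TKO, and for Junb 2.88 and 17.7, and 3.02 and 16.6. Of these 4 genes Fosb varied least, with 11.2 and 17.3 in Zmat3-/- and 13.7 and 19.9 in TKO mice. Jund was 0.751 times wt in high-Xist and 1.73 times wt in low-Xist Zmat3-/- mice, and Batf 0.631 and 1.48 times, so that both changed direction. In TKO mice Jund was likewise 0.681 and 1.98 times wt, and Batf 0.629 and 1.51 times. Fosl2 was 1.37 and 1.48 times wt in Zmat3-/- and 1.43 and 2.41 times in TKO, and Atf3 1.48 and 5.64 times, and 1.73 and 7.65 times. Taken as an interaction of genotype with the Xist level, which was fitted for Zmat3-/- against wt alone, the difference between high-Xist and low-Xist mice passed an adjusted p of 0.05 in edgeR for 5 of the 8 members (Fos, Jun, Junb, Jund and Batf), against 44.2% of all genes, so the count says nothing particular of AP-1.

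**Figure D4:**
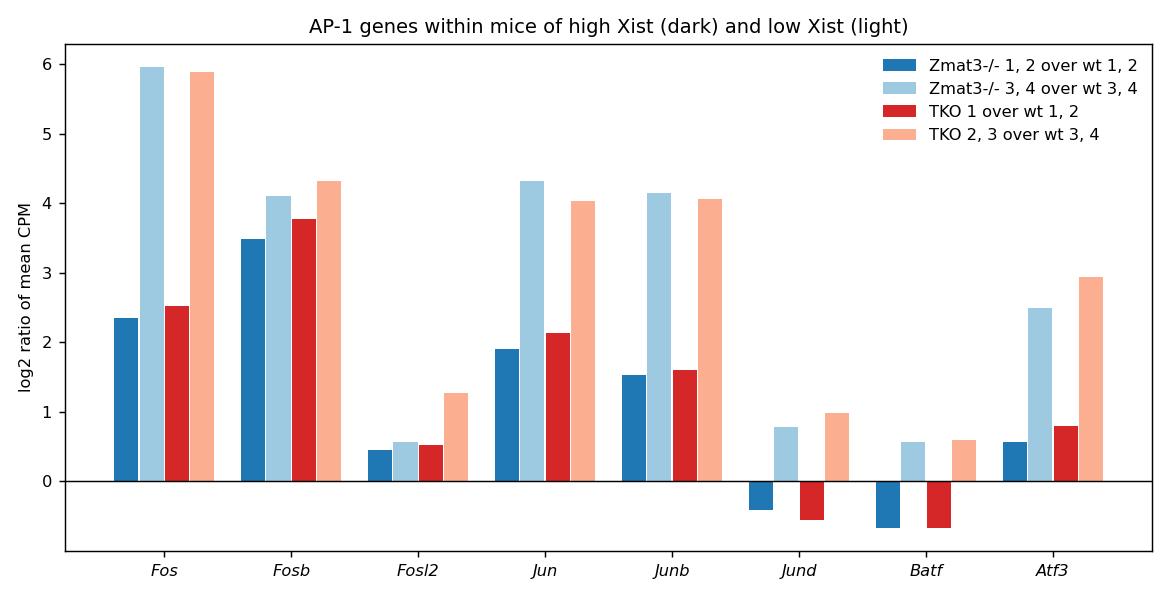
log2 ratio of mean CPM of each AP-1 gene in knockout over wt mice, within mice of high Xist (dark bars: Zmat3-/- 1 and 2 or TKO 1 over wt 1 and 2) and of low Xist (light bars: Zmat3-/- 3 and 4 or TKO 2 and 3 over wt 3 and 4). Fos goes from 2.35 to 5.96 between dark and light bars in Zmat3-/- mice, Fosb from 3.48 to 4.11, and Jund and Batf pass from below to above 0.

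Leaving out wt mice in this way also changed how many members passed the thresholds. Without wt mice 3 and 4, edgeR called 4 members in Zmat3-/- against wt (Fosb, Fos, Jun, Junb) and 3 in TKO (Fosb, Fos, Jun). Without wt mice 1 and 2 it called 5 in both (the same and Atf3, with Junb in TKO). The count over all genes rose likewise, from 43 to 733 and 441 in Zmat3-/- and from 32 to 672 and 244 in TKO. Same-numbered Zmat3-/- and wt mice deviated together, though mice 1 and 2 each matched the other number better than their own. A fit with a block for mouse number called 8 genes in that comparison, Fosb among them.

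The comparison of TKO with Zmat3-/- mice asked whether loss of PUMA and p21 in addition to ZMAT3 changed AP-1 transcripts, and it did not involve the wt mice. None of the 8 members was called by edgeR's quasi-likelihood test, none had an unadjusted p under 0.05 and DESeq2 called 0 as well, where 0.122% of 13124 genes were called. Likewise 0 members were above Zmat3-/- in every TKO mouse, against 3.49% of all genes. The log2FC (TKO relative to Zmat3-/-) and its 95% interval were -0.049 (-0.44 to 0.34) for Fos, 0.13 (-0.58 to 0.84) for Fosb and 0.37 (-0.069 to 0.82) for Fosl2. In the Jun family they were -0.17 (-0.82 to 0.48) for Jun, -0.086 (-0.32 to 0.15) for Junb and -0.0091 (-0.21 to 0.19) for Jund. For the partners they were -0.046 (-0.48 to 0.39) for Batf and 0.24 (-0.55 to 1.03) for Atf3. All adjusted p from edgeR were 0.983 or above. The intervals were narrowest for Jund and Junb and widest for Atf3 and Fosb, and a difference of any size within them is not excluded. The direction of the differences for Fos, Fosb, Jun, Jund, Batf and Atf3 turned when single mice were left out.

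Within the knockout genotypes 1 mouse of each was low for most early-response members. Zmat3-/- mouse 3 was the lowest of its group for Fos (141 CPM), Fosb (23.2), Jun (66.2) and Junb (505), and TKO mouse 2 was the lowest of its group for Fos (124), Fosb (18.9), Jun (64.3) and Junb (482). TKO mouse 2 was instead the highest of all 11 mice for Fosl2 (11.8) and Atf3 (3.33). It had the smallest library, with 17669715 counts, and Zmat3-/- mouse 3 had the largest share of counts on mitochondrial genes (14.6%) and the highest summed erythroid markers of the knockout mice (6 of 6 detected, 5705 CPM). Their part in these levels was not tested.

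Other genes of the AP-1 pathway were given from lists of fixed content and were tested in all 3 comparisons. The lists were chosen with earlier results of these data known, so their counts against wt are no independent test. The 24 AP-1 relatives are other leucine zipper proteins, such as the Maf, CREB, ATF and CNC families and Jdp2, and 22 of them passed the filter. Of these, 0 were called in any comparison, also at an adjusted p under 0.05 with any fold change, where 0.763% of all genes were called in Zmat3-/- against wt, 0.294% in TKO against wt and 0.221% in TKO against Zmat3-/-. In Zmat3-/- against wt 15 were higher and 7 lower, with 6 at an unadjusted p under 0.05, where 16.1% of all genes were. In TKO against wt 12 were higher and 10 lower, with 3 at an unadjusted p under 0.05, where 10.3% of all genes were. The lowest of the relatives were Mafg, a small Maf partner, with a log2FC of -0.55 for Zmat3-/-, and Nfe2, with -0.55 for TKO. Between TKO and Zmat3-/- the extremes were 0.19 for Nfe2l1 and -0.24 for Crem.

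Kinases and factors upstream of AP-1 (the ERK, JNK and p38 kinases, SRF, ELK and MEF2 factors) numbered 18, of which 17 passed the filter and 0 were called in any comparison. Over all genes 0.319% were called in Zmat3-/- against wt, 0.241% in TKO against wt and 0.122% in TKO against Zmat3-/-. At these shares 0 calls are what a list of this size would mostly give, so no lack of change is read from them. In each comparison with wt 12 were higher and 5 lower, with 2 at an unadjusted p under 0.05 in each. Of all genes 16.1% were under it in Zmat3-/- against wt and 10.3% in TKO against wt. The largest log2FC was 0.46 for Mapk14, which encodes p38 alpha, and the smallest -0.35 for Mapk3, which encodes ERK1, in TKO against wt. In Zmat3-/- against wt these were 0.33 for Elk1, an SRF partner, and -0.41 for Map2k2, which encodes the ERK kinase MEK2. Between the knockout genotypes they were 0.15 for Mef2d and -0.091 for Mapk9, which encodes JNK2. The 7 genes for turnover of Jun and Fos proteins were all tested, with 5 higher and 2 lower in each comparison. Of these genes 0 were called, beside the same shares of all genes. The highest of them was Gsk3b, a kinase that marks JUN for degradation, with a log2FC of 0.35 for Zmat3-/- against wt, 0.48 for TKO against wt and 0.13 for TKO against Zmat3-/-.

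Of the 18 genes listed as AP-1 targets, 11, 10 and 11 passed the filter in Zmat3-/- against wt, TKO against wt and TKO against Zmat3-/-. Of these genes 0 were called in any comparison, beside the shares of all genes given for the upstream genes. They split into 7 higher and 4 lower, 6 higher and 4 lower, and 4 higher and 7 lower. Ifng, the gene of interferon gamma, had the highest log2FC in Zmat3-/- (0.70), and Plaur, the urokinase receptor, the lowest (-0.39). In TKO against wt the highest was Ccnd1, the gene of cyclin D1 (0.65), at 7.17, 12.3, 6.93 and 5.73 CPM in wt and 14.4, 13.7 and 10.2 in TKO mice, and the lowest was Plaur (-0.64). Between the knockout genotypes Ifng (0.29) and Plau, the gene of urokinase (-0.41), were the extremes. The Ccnd1 levels overlapped through wt mouse 2. The median log2FC in Zmat3-/- and in TKO against wt was 0.17 and 0.20 for the relatives, 0.085 and 0.17 for the upstream genes, 0.036 and 0.11 for the turnover genes and 0.043 and 0.042 for the targets, beside -0.026 and -0.037 for all genes. The nearest tested genes on both sides of the members, 17 in all, were also without a call, with 5 higher and 12 lower in Zmat3-/- against wt and 4 and 13 in TKO against wt. Calls were too rare over all genes for these counts of 0 to be read as a lack of change.

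**Figure D5:**
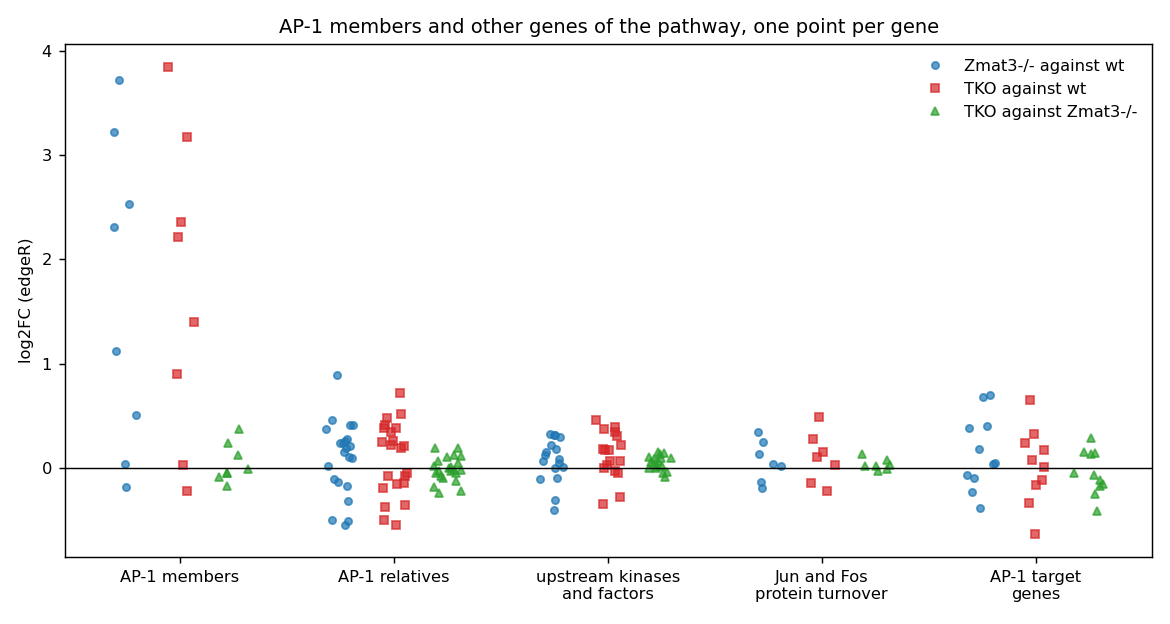
log2FC from edgeR, 1 point per gene that passed the filter, for the AP-1 members and 4 lists of pathway genes, in Zmat3-/- against wt (circles), TKO against wt (squares) and TKO against Zmat3-/- (triangles). The members reach 3.84 against wt, whereas the upstream genes reach 0.46, the turnover genes 0.48 and the target genes 0.70.

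Genes whose pattern over the 11 mice was most like that of Fos or Junb were found by the root-mean-square difference of centred log2 CPM over 12957 genes. For Fos the 5 nearest outside the family were Gpr3 (0.548), a G protein-coupled receptor, Ppp1r15a (0.774), which encodes the stress-induced phosphatase subunit GADD34, Lncppara (0.945), Plk2 (0.985), a polo-like kinase, and Foxj1 (1.01), a forkhead factor, against a median of 2.28 over all genes. For Junb they were Ppp1r15a (0.152), Foxj1 (0.452), Plk2 (0.477), Dusp1 (0.512), a MAP kinase phosphatase, and Lncppara (0.586), against a median of 1.59. In wt mice 3 and 4 Gpr3 was at 0 CPM and Lncppara at 0.124 and 0.115, under the floor of 3 counts. Foxj1 was under it in wt mouse 4 (0.0769 CPM). The likeness of these 3 genes thus rests in part on the prior count of 2 used for log2 CPM. Ppp1r15a was 76.2, 68.9, 16.2 and 14.2 CPM in wt, 231, 250, 221 and 277 in Zmat3-/- and 269, 175 and 226 in TKO mice. It thus had the same high and low wt pairs as Junb, and TKO mouse 2 as the lowest knockout mouse. Within the family, the nearest to Fos was Jun (0.631), followed by Junb (0.718) and Fosb (0.879), and the nearest to Junb was Jun (0.320). Jund (2.01) and Batf (2.16) were much less like Fos, at ranks 502 and 1809 of 12957 genes. All these values rest on the same 11 libraries and share the wt pairs.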

How the data were processed

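Single-cell suspensions of thymus from 11 mice had been sequenced with a kit that does not mark strand. The authors deposited estimated counts per gene from Salmon (all whole numbers, on GRCm38.p6), not normalised; the submitters' processing notes also name bcl2fastq, which wrote the read files, and DESeq2 1.40.0, which made no value used here. Gene names came from GENCODE M21, by identifier without version, for 54166 of 54418 genes (252 not matched), whereas the authors used vM25. The members and the gene lists were chosen with earlier results of these data known.

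A gene was tested if it reached 20 counts, at the depth of the smallest library compared, in at least the number of mice of the smaller group. Xist and genes of the Y chromosome, rRNA genes and immunoglobulin genes without a coding product were not tested. Each pair of genotypes was fitted separately with edgeR 4.0.16 (quasi-likelihood F-test, two-sided, TMM, R 4.3.3) and adjusted by Benjamini-Hochberg over all genes tested. A gene was called at an adjusted p under 0.05 and an absolute log2FC above 1.5. The study corrected for sex and surrogate variables, but the labels used here give no sex, so a surrogate variable and the Xist level were alternatives. CPM used TMM over 11 mice, and 95% intervals used the SE implied by the F-test and the t distribution with its degrees of freedom. The fit was tested on simulated data with 200 changed genes.

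The named genes were all members, the targeted genes, every called gene and the largest rise and fall of each list and comparison, called neighbours, and the 5 genes most like Fos and Junb; some genes that this rule names are not reported here. Ppp1r15a, Jdp2, Prdx2 and antisense genes were given in every mouse or by range after their values were seen. No mice had counts within sampling noise of each other (lowest chi-square per degree of freedom 11.9), so all counted as separate samples; p-values measure the spread between these mice. Deviations of Zmat3-/- and wt mice of the same number correlated at 0.337, 0.128, 0.257 and 0.301, so the numbers were treated as pairs there. This rests on the data alone, and mice 1 and 2 each matched the other number better than their own. Pairs therefore cannot be told apart there from the division of mice 1 and 2 from mice 3 and 4. For TKO and wt (0.073, 0.302 and 0.405) and for TKO and Zmat3-/- (0.195, 0.010 and 0.174) the numbers were not treated as pairs. Alternatives were DESeq2 1.42.0, RLE size factors, 2 other filters, all genotypes in one fit, a replicate block, sva 3.50.0, the Xist level, any fold change, and leaving out each mouse. Leaving out wt mice in pairs and values by Xist level were added after seeing the data.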

Additional observations from a re-analysis of the deposited data

Results flagged for a closer look

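Jun in Zmat3-/- mouse 3, at 66.2 CPM, lay far below the other Zmat3-/- mice, the next of which was at 124 CPM. The gap was 0.902 of the whole range of the group. It was the single such value in 16 groups of 4 mice tested (8 genes in wt and in Zmat3-/-), and chance gives such a gap in about 1 in 20 groups.

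The difference of Zmat3-/- from wt was not the same in mice of high and of low Xist for 5 members. The log2 difference between the effects (high minus low Xist, edgeR interaction term) was -3.57 (SE 0.289) for Fos, -2.37 (SE 0.358) for Jun, -2.58 (SE 0.167) for Junb, -1.16 (SE 0.197) for Jund and -1.19 (SE 0.287) for Batf. For Fosb it was -0.59 (SE 0.443), which did not pass an adjusted p of 0.05. Of all 13494 genes 44.2% passed it, so that 5 of 8 members is near the share of all genes, and the members had been chosen on this contrast. In wt, mice 1 and 2 had high and mice 3 and 4 low Xist, and this division cannot be told apart from any other difference between these mice.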

How the results depend on the processing

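For TKO against wt the 32 genes called by edgeR became 103 with DESeq2, 51 with no filter on low counts, 68 with all genotypes in one fit, 19 with 1 surrogate variable, and 672 without wt mice 3 and 4 or 244 without wt mice 1 and 2, both chosen after seeing the data. Leaving out single mice gave 15 to 35. Of the members, 1 (Fosb) became 3 with DESeq2 (with Jun and Junb), 3 without wt mice 3 and 4 and 5 without wt mice 1 and 2, and 0 to 1 without single mice (0 without TKO mouse 1 or TKO mouse 3). With the replicate block, whose numbers were not treated as pairs there, 16 genes and 0 members were called.

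For Zmat3-/- against wt the 43 genes became 123 with DESeq2, 73 in one fit, 160 with 1 surrogate variable, 103 at any fold change, 733 without wt mice 3 and 4 and 441 without wt mice 1 and 2, and 12 to 47 without single mice. Of the members, 1 (Fosb) became 4 with DESeq2, 5 with 1 surrogate variable, 4 without wt mice 3 and 4 and 5 without wt mice 1 and 2, and was 1 to 1 without single mice. Pairing the mice by number with the replicate block gave 8 genes and 1 member. Pathway genes called were 0 throughout, except 1 without wt mice 1 and 2 (Hmox1, a heme oxygenase gene of the target list, log2FC 1.87, named after its value was seen).

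For TKO against Zmat3-/- the 16 genes became 45 with no filter and 29 at any fold change, and 14 to 18 without single mice, and 0 members or pathway genes were called under any alternative run. The log2FC turned direction to 0.030 for Fos with the replicate block, to -0.13 for Fosb with 1 surrogate variable, and for Jund to 0.0071 with no filter and 0.014 with the Xist level. Without single mice it ranged from -0.20 to 0.15 for Fos, -0.065 to 0.46 for Fosb, -0.62 to 0.052 for Jun, -0.071 to 0.049 for Jund, -0.16 to 0.13 for Batf and -0.036 to 0.56 for Atf3. The cause of these changes was not tested. Depth limits Atf3, with 8 to 116 counts per mouse, and Fosl1 has too few counts for a comparison.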
